A study of Mus musculus with 64 samples.

Results

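Homeostatic microglia markers are the genes by which resting microglia, the resident macrophages of the brain, are told apart from other cells and from activated microglia. The 9 genes described here are P2ry12, Tmem119, Cx3cr1, Csf1r, Siglech, Fcrls, Gpr34, Selplg and Olfml3. They were chosen by name, as rows of a table of 49671 genes, and all 9 were measured and passed the count filter in every fit. Most of their products sit at the cell surface, where microglia sense nucleotides, chemokines, lipids and growth factors released by neurons and other glia. Their expression depends on signalling through the receptor Csf1r and on transforming growth factor beta, and it is typically lost when microglia become activated or are kept in culture.

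The 64 libraries hold total RNA, depleted of ribosomal RNA, from microglia of adult male C57BL/6 mice (the N substrain in the study's methods), taken from the hippocampus in 32 libraries and from the frontal cortex in 32. Cells were dissociated mechanically in the cold and selected with magnetic beads against CD11b, a surface protein that border macrophages, monocytes and neutrophils carry as well. Libraries are labelled Night or Day and carry 1 of the condition names Soci, Cogn, Ctr0 and Ctr1, which gives 16 groups of 4. The labels name no transgene, deletion or drug, do not explain the condition names, and do not say whether the 4 replicates of a group are separate animals, so p-values measure only the spread between these samples. The light-dark cycle of the mice was reversed, and the study's text says that microglia were taken once in the light and once in the dark phase, while the labels do not tie Day or Night to either.

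By role, 4 members are signalling receptors. P2ry12 (ENSMUSG00000036353) binds ADP and steers microglial processes towards sites of nucleotide release. It lies on chromosome 3 from 59216272 to 59262871 in build GRCm38, on the minus strand and inside Med12l, whose exons overlap it on the other strand. Cx3cr1 (ENSMUSG00000052336, chromosome 9, 119901616 to 120069879, minus strand) is the receptor of the neuronal chemokine fractalkine. Csf1r (ENSMUSG00000024621, chromosome 18, 61100598 to 61132149, plus strand) is the receptor tyrosine kinase on which microglial survival depends. Gpr34 (ENSMUSG00000040229, chromosome X, 13632089 to 13640858, plus strand) responds to lysophosphatidylserine and lies inside Cask on the opposite strand, with no shared exon.

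Another 4 members are surface proteins of other kinds. Tmem119 (ENSMUSG00000054675, chromosome 5, 113793729 to 113800516) is a transmembrane protein widely used to tell microglia from blood-borne macrophages. Selplg (ENSMUSG00000048163, chromosome 5, 113818536 to 113832644) encodes PSGL-1, the glycoprotein that selectins bind. Both are on the minus strand and only 18.02 kb apart. Siglech (ENSMUSG00000051504, chromosome 7, 55768178 to 55778925, plus strand) belongs to the Siglec family of lectins, and Fcrls (ENSMUSG00000015852, chromosome 3, 87250758 to 87263738, minus strand) is a scavenger receptor related to Fc receptors. Olfml3 (ENSMUSG00000027848, chromosome 3, 103722222 to 103738001, minus strand) differs from the others in that its product is secreted.

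Where genes overlap, reads can be shared between them, and the strand setting of the counting is not given in the sources used here. Med12l had a median of 4.22% of the count of P2ry12 in the same library, Cask 11.8% of that of Gpr34, Hmgxb3 0.806% of that of Csf1r and the antisense gene Gm33858 1.08% of that of Cx3cr1. Cask was the largest of these beside its member, and stayed at or under 20.4% in every library.

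Sequence before a RefSeq start was examined for 5 members: P2ry12, Cx3cr1, Siglech, Fcrls and Olfml3. Tmem119, Csf1r, Gpr34 and Selplg were not searched, so the motif results do not cover them. Siglech and Olfml3 are shown because they are the members whose day-night change passed the threshold in neither region, and because their windows overlap at most 6 bases of an annotated exon, which were removed. The sequences are from RefSeq, build GRCm38.p6, 5′ to 3′ on the strand of the gene and ending at its start or, for Siglech, 6 bases before the RefSeq start from which positions are counted, with capitals for the matches named below.
Siglech, chr7:55767934-55768177, plus strand: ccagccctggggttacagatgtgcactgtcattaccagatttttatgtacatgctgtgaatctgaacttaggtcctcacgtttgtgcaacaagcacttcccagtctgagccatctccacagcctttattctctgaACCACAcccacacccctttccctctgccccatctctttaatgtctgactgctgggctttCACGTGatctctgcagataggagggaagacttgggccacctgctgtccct
Olfml3, chr3:103738002-103738251, minus strand: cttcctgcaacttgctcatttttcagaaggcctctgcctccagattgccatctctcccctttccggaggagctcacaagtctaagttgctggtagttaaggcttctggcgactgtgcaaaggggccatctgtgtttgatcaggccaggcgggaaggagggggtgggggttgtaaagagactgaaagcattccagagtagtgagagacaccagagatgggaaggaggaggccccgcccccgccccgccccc

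For the 5 members the 250 bases before the start given by RefSeq were searched for 8 motifs on both strands. This window lies wholly in an exon of Cx3cr1 itself for Cx3cr1 and of Med12l for P2ry12, and 136 of its bases are in an exon of Fcrls for Fcrls, so the matches in these 3 are not all in sequence upstream of every annotated transcript. The E-box CACGTG, which clock factors bind, was present in P2ry12 and in Siglech, 56 bases before the start of the latter, and in 6.02% of 32851 promoters. The RUNX motif TGTGGT was found in Cx3cr1, Siglech and Fcrls and in 14% of promoters. In Siglech it is read from the other strand, 115 bases before the start. The half-site AGGTCA of ROR and REV-ERB receptors was present in P2ry12 and in 14% of promoters, and the PU.1 core GAGGAA in Fcrls and in 23.3%. None of the 5 held the longer PU.1 motif GAGGAAGT (2.44% of promoters, and overlapping the core), the MEF2 motif TAAAAATA (2.45%), the SMAD motif GTCTAGAC (0.167%) or the D-box TTACGTAA (0.113%). The Olfml3 window held none of the 8.

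Library totals ran from 11615344 to 84472229 counts in hippocampus and from 10156071 to 26326521 counts in frontal cortex. The lowest count of any member in any library was 4875, for Siglech, so counting error was small beside the spread between libraries. Levels are in CPM, the counts of a gene scaled to a common library total by TMM. Of 5 clock genes, 2 were higher and 2 lower in day in each region. Nr1d1, whose RNA peaks in the light phase in most mouse tissues, was at 15.99 ± 6.995 CPM in hippocampal night and 4.23 ± 1.51 CPM in hippocampal day libraries (SD, n = 16 each), and it fell by 1.87 on the log2 scale in day (edgeR, adjusted p = 2.22e-08). Per2 and Cry1 were higher in day by 1.12 and 1.29 in the same fit (adjusted p = 1.62e-07 and 6.23e-12), and all 3 had the same direction in frontal cortex. Arntl was lower in day in both regions, at -0.54 and -0.64 (adjusted p = 6.82e-06 and 1.15e-06), and Dbp was not called, at 0.04 and -0.10 (adjusted p = 0.838 and 0.624). Nr1d1 was thus higher in the libraries labelled Night, the reverse of a light-phase peak if Day were the light phase. In what follows, day and night therefore stand for the labels and not for light and dark. The frontal cortex library Night Cogn replicate 4 stood apart, with a summed level of 12 microglial reference genes of 15515 CPM against 8167 to 13878 CPM in the other 15 night libraries, and cortical results are given with and without it where it changes a call.

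All 9 genes were abundant in every group. Per kilobase of exon, Csf1r had the highest mean level at 729 ± 125 CPM per kb (SD, n = 64), followed by P2ry12 at 703 ± 143 and Cx3cr1 at 598 ± 100 CPM per kb. Tmem119 was at 473 ± 119, Fcrls at 362 ± 70.4, Gpr34 at 317 ± 63.6 and Selplg at 269 ± 59.5 CPM per kb. By this measure the growth factor receptor led the order and the secreted protein closed it, with Siglech at 164 ± 18.3 and Olfml3 at 111 ± 17.1 CPM per kb. The order depends on the exon length, taken over all annotated transcripts of a gene, which was 6.16 kb for Olfml3. Without this division the mean of Olfml3, 686 CPM, was above those of Gpr34 (662 CPM) and Siglech (555 CPM). Csf1r was above P2ry12 in 44 of 64 libraries, the least settled pair of neighbours, and their spreads overlap. Selplg was above Siglech, and Siglech above Olfml3, in 64 of 64. Gpr34 was above Selplg in 53, Tmem119 above Fcrls in 56, Fcrls above Gpr34 in 57, P2ry12 above Cx3cr1 in 60 and Cx3cr1 above Tmem119 in 63. The members also differed in how far libraries varied. The SD was 25.1% of the mean for Tmem119 and 22.1% for Selplg, but 11.2% for Siglech, with the others between 15.3% and 20.3%.

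**Figure D1:**
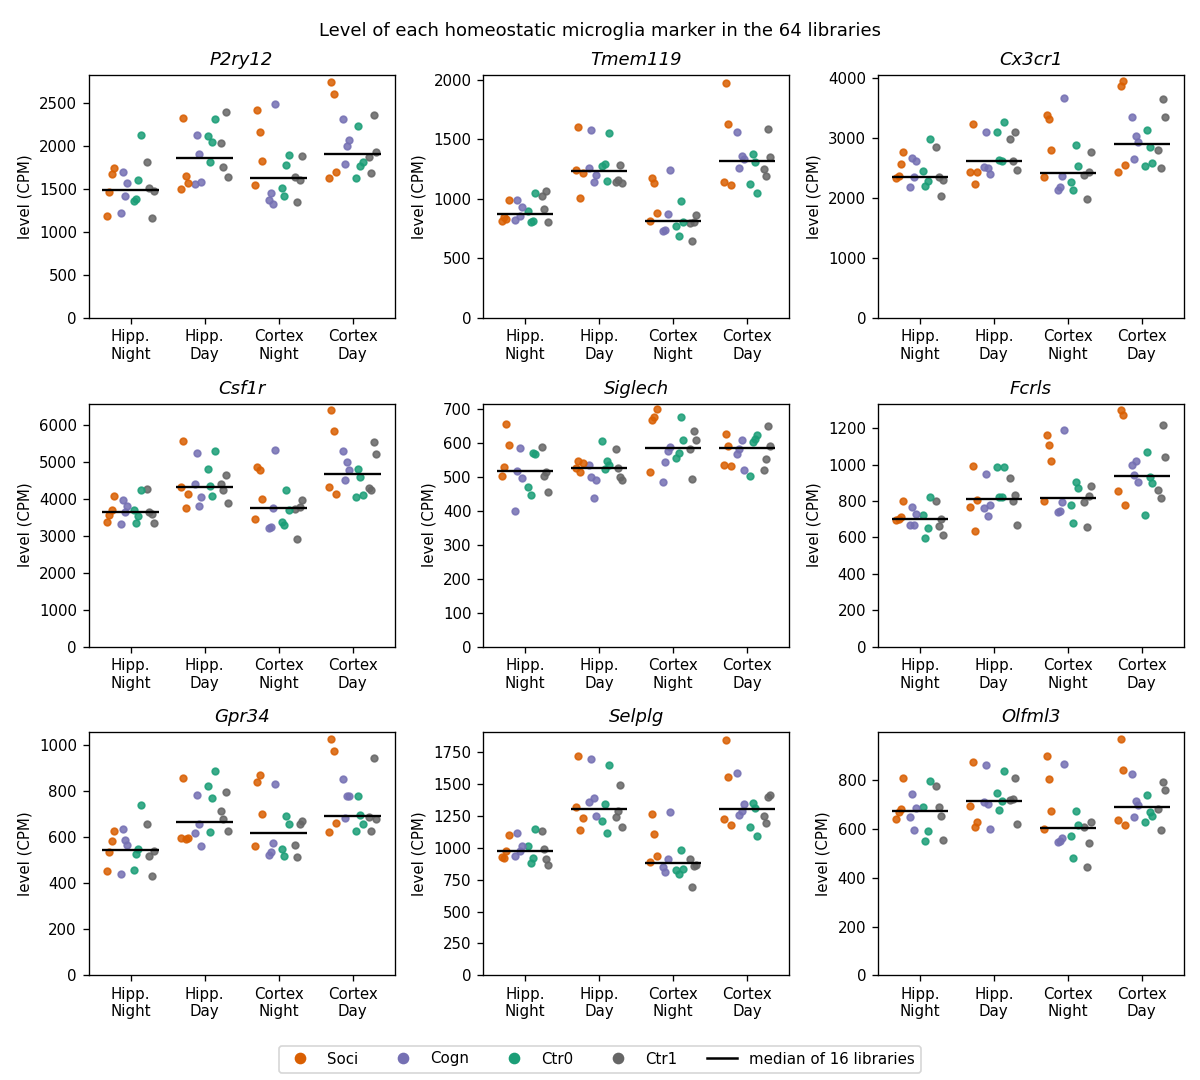
Level of each member in CPM (y axis, linear) in the 64 libraries, by region and phase (x axis, 16 libraries each), with 1 point per library coloured by condition and a line at the median. Day medians lie above night medians for Tmem119 (1228 against 875 CPM in hippocampus) and Selplg (1302 against 975 CPM), while those of Siglech nearly coincide (528 against 517 CPM).

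The day-night comparison asks whether these markers differ between the phases, with the 4 conditions pooled. In hippocampus 7 of the 9 members were higher in day and none was lower, where 23.4% of the 15527 genes tested were called higher and 18.8% lower. The median log2 change of the 9 was 0.30, against 0.02 over all genes tested. In frontal cortex 4 of 9 were higher and none lower, against 20.6% and 21.3% of 14975 genes. There the median change was 0.21, against -0.02 over all genes. Tmem119, Selplg, Csf1r and Gpr34 were called in both regions. In these bulk libraries more microglia in a sample and more RNA of a gene per cell cannot be told apart.

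Tmem119 had the clearest change. In hippocampus the 16 night libraries ran from 801 to 1068 CPM with a median of 875, and the 16 day libraries from 1009 to 1601 CPM with a median of 1228. The phases barely overlapped, with 15 of 16 day libraries above every night library. The log2 change was 0.52 ± 0.06 (SE, edgeR, adjusted p = 6.58e-08), a 1.44-fold higher level in day. In frontal cortex night libraries ran from 643 to 1241 CPM with a median of 808 and day libraries from 1050 to 1973 CPM with a median of 1320. Of the day libraries there 11 of 16 were above all night libraries, and the change was 0.63 ± 0.09 (SE, edgeR, adjusted p = 3.70e-06).

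Selplg, its neighbour on chromosome 5, moved by nearly as much. Hippocampal levels were 866 to 1143 CPM in night (median 975) and 1113 to 1722 CPM in day libraries (median 1302). The 2 phases overlapped little, with 14 of 16 day libraries above all night libraries and a change of 0.49 ± 0.06 (SE, edgeR, adjusted p = 1.94e-07). Cortical levels were 694 to 1277 CPM in night (median 877) and 1089 to 1846 CPM in day libraries (median 1302). Here 9 of 16 day libraries exceeded the highest night library, and the change was 0.53 ± 0.08 (SE, edgeR, adjusted p = 4.03e-06).

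The 4 signalling receptors had smaller differences, and their phases overlapped. Csf1r went from a median of 3641 CPM in hippocampal night (3315 to 4264) to 4338 CPM in day (3772 to 5583), a change of 0.30 ± 0.06 (SE, edgeR, adjusted p = 8.95e-05). In frontal cortex its medians were 3752 CPM (2908 to 5345) and 4688 CPM (4064 to 6418), a change of 0.32 ± 0.08 (SE, adjusted p = 0.00262). The change of this growth factor receptor was thus called in both regions and similar in size. Gpr34, the lysophosphatidylserine receptor, had medians of 543 CPM in night (431 to 742) and 667 CPM in day (560 to 886) in hippocampus, a change of 0.38 ± 0.08 (SE, adjusted p = 0.000211). In frontal cortex they were 617 CPM (513 to 871) and 691 CPM (623 to 1025), a change of 0.23 ± 0.09 (SE, adjusted p = 0.0333). Its cortical call was lost without the libraries numbered 1, 2 or 3 (adjusted p = 0.135, 0.139 and 0.0764).

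P2ry12 and Cx3cr1 were called in hippocampus and not in frontal cortex. P2ry12, the ADP receptor, had hippocampal medians of 1492 CPM in night (1165 to 2123) and 1857 CPM in day (1503 to 2400), with a change of 0.35 ± 0.08 (SE, edgeR, adjusted p = 0.000928). Its cortical medians were 1623 CPM (1329 to 2491) and 1902 CPM (1630 to 2749), with a log2 difference of 0.21 ± 0.10 (SE, adjusted p = 0.0679). Cx3cr1, the fractalkine receptor, had hippocampal medians of 2355 CPM (2026 to 2986) and 2614 CPM (2230 to 3267), with a change of 0.19 ± 0.06 (SE, adjusted p = 0.0153). That call was lost without the libraries numbered 1, 2 or 3, where the difference was 0.15, 0.12 and 0.14 (adjusted p = 0.140, 0.249 and 0.0852). Cortical medians were 2411 CPM (1986 to 3664) and 2890 CPM (2433 to 3953), with a log2 difference of 0.21 ± 0.09 (SE, adjusted p = 0.0622). The highest cortical night value of Cx3cr1 was that of Night Cogn replicate 4, and without that library the adjusted p was 0.0207 for P2ry12 and 0.0191 for Cx3cr1. With Olfml3, at 0.0270, this made 7 members called in frontal cortex in place of 4, and leaving out all libraries numbered 4 made 8.

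The scavenger receptor was called in hippocampus, and the lectin and the secreted protein in neither region. Fcrls rose in hippocampus from a median of 701 CPM (598 to 819) to 812 CPM (633 to 990), by 0.27 ± 0.06 (SE, edgeR, adjusted p = 0.000611). Without the libraries numbered 2 its hippocampal difference was 0.18 and was not called (adjusted p = 0.0508). In frontal cortex its medians were 814 CPM in night (658 to 1192) and 937 CPM in day (725 to 1300), and the difference of 0.16 ± 0.09 (SE, adjusted p = 0.146) was not called. Olfml3 had medians of 676 and 713 CPM in hippocampal night and day (552 to 811 and 601 to 876), with a log2 difference of 0.14 ± 0.06 (SE, adjusted p = 0.0708). In frontal cortex they were 604 and 689 CPM (446 to 900 and 596 to 970), with a difference of 0.19 ± 0.09 (SE, adjusted p = 0.0791). Siglech had the smallest difference of the 9 in each region, and its phases overlapped throughout. Its hippocampal medians were 517 CPM in night (401 to 656) and 528 CPM in day (438 to 606), with a log2 difference of 0.04 and an approximate 95% interval from -0.07 to 0.15 (edgeR, adjusted p = 0.580). Its cortical medians were 587 CPM in both phases, with ranges of 486 to 702 CPM in night and 504 to 651 CPM in day and a difference of -0.05, with an interval from -0.15 to 0.05 (adjusted p = 0.478).

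**Figure D2:**
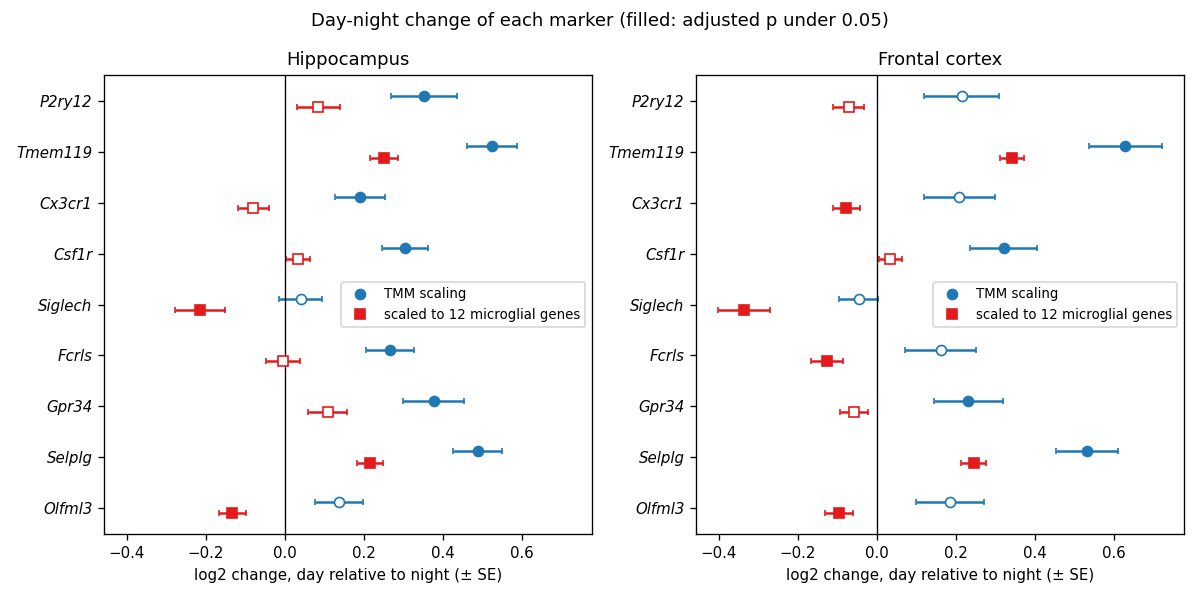
Log2 change of each member, day relative to night, with its SE (x axis) in hippocampus (left) and frontal cortex (right), under TMM scaling (circles) and scaling to 12 other microglial genes (squares), filled where the adjusted p was under 0.05. Tmem119 (0.52 and 0.63) and Selplg (0.49 and 0.53) keep called rises under both scalings, while Siglech and Olfml3 are called lower under the second scaling.

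Markers of other cells moved with the phase. The summed level of 50 markers of neurons, astrocytes, oligodendrocytes, endothelial cells and choroid plexus ran from 2509 to 8024 CPM in hippocampal night and from 1325 to 3403 CPM in hippocampal day libraries. In frontal cortex the ranges were 1133 to 4928 and 924 to 2567 CPM. In day, 3 of 10 neuronal, 8 of 10 astrocytic, 8 of 10 oligodendrocytic, 7 of 10 endothelial and 10 of 10 choroid plexus markers were lower in hippocampus, and 1 astrocytic marker was higher. In frontal cortex 9 neuronal, 8 astrocytic, 5 oligodendrocytic and 2 endothelial markers of 10 each were lower, and 0 of the 5 choroid plexus markers tested was called. Border macrophage markers went with the members, with 10 of 10 higher in day in hippocampus (summed 688 to 1121 CPM in night and 938 to 1497 CPM in day) and 7 of 10 in frontal cortex (784 to 1209 and 967 to 1589 CPM). Of 5 neutrophil and monocyte markers tested, 1 was higher and 1 lower in hippocampus and 0 was called in frontal cortex. Of 11 genes of the response to dissociation, 6 were higher and 1 lower in hippocampus, and 3 and 3 in frontal cortex. For all genes tested, the shares called higher and lower in day were 23.4% and 18.8% in hippocampus and 20.6% and 21.3% in frontal cortex. No marker of these lists of cell types was at 0 in every library. With scores of these 7 cell types as covariates, 0 members were called in hippocampus, where only 152 genes were called in all, and 2 in frontal cortex. These were Tmem119 (0.76 ± 0.19, SE; adjusted p = 0.00822) and Selplg (0.70 ± 0.16, SE; adjusted p = 0.00472). In hippocampus this fit gave Tmem119 at 0.27 ± 0.12, Selplg at 0.18 ± 0.13 and P2ry12 at 0.02 ± 0.17 (SE), and 5 members stayed positive. Their SE without the scores was 0.06, 0.06 and 0.08. The markers behind the scores moved with the phase themselves, so a lost call cannot tell a part of other cells from a loss of precision. The part of other cells in the day-night changes was otherwise not tested.

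Set against other microglial genes, 2 members were called higher in day in both regions and 2 lower. The reference was the summed count of 12 genes, among them Ctss, Cst3, C1qa, C1qb, C1qc, Trem2, Tyrobp, Laptm5, Aif1, Cd53 and Ly86, and 10 of the 12 were themselves higher in day in each region. Under this scaling Tmem119 was higher in day by 0.25 ± 0.04 in hippocampus and 0.34 ± 0.03 in frontal cortex (SE, edgeR, adjusted p = 7.09e-07 and 9.20e-10). Selplg was higher by 0.21 ± 0.03 and 0.24 ± 0.03 (SE, adjusted p = 3.23e-06 and 1.16e-06). Both were called in the same direction as under TMM. Siglech was lower by this measure, at -0.22 ± 0.06 and -0.34 ± 0.07 (SE, adjusted p = 0.00473 and 0.000130), and so was Olfml3, at -0.13 ± 0.03 and -0.10 ± 0.04 (SE, adjusted p = 0.00172 and 0.0198). In frontal cortex Cx3cr1 and Fcrls were also called lower, at -0.08 and -0.13 (adjusted p = 0.0491 and 0.00794). Csf1r, called higher under TMM in both regions, was at 0.03 in each (adjusted p = 0.382 and 0.282). P2ry12 was at 0.08 and -0.07 (adjusted p = 0.191 and 0.111) and Gpr34 at 0.11 and -0.06 (adjusted p = 0.0688 and 0.152), and neither was called.

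Ratios of 2 members within a library need no scaling, and all 36 pairs were compared in each region, a test chosen after the changes were seen. The log2 ratio differed between phases for 24 of 36 pairs in hippocampus and 27 of 36 in frontal cortex (2-sided permutation test, n = 16 per phase, adjusted over the 36 pairs). The pairs share members and are not independent, and ratios of other genes were not compared, so these counts have no background beside them. Tmem119 rose against 6 of the 8 other members in hippocampus and against all 8 in frontal cortex. Siglech rose against 0 and fell against 7 and 8. The ratio of Tmem119 to Siglech had a median of 1.78 in hippocampal night (1.27 to 2.07) and 2.35 in hippocampal day libraries (1.95 to 3.14), and the day value exceeded all night values in 14 of 16 libraries. In frontal cortex the medians were 1.396 (1.20 to 2.10) and 2.25 (1.68 to 3.15), again with 14 of 16 day libraries above all night libraries. The day-night differences in log2 ratio were 0.47 and 0.68, each with p = 1e-05, the smallest the permutations can give, and adjusted p = 5.14e-05 and 2.40e-05. This pair joins the members that moved most and least with phase in the same data, so its p is no separate support. Selplg to Siglech went from 1.91 to 2.51 in hippocampus and from 1.48 to 2.26 in frontal cortex (medians). The ratio of the neighbours Tmem119 and Selplg moved little, with medians of 0.900 in night and 0.935 in day in hippocampus (log2 difference 0.04; permutation test, adjusted p = 0.282). It was 0.934 and 0.995 in frontal cortex (log2 difference 0.10; permutation test, adjusted p = 0.00115).

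**Figure D3:**
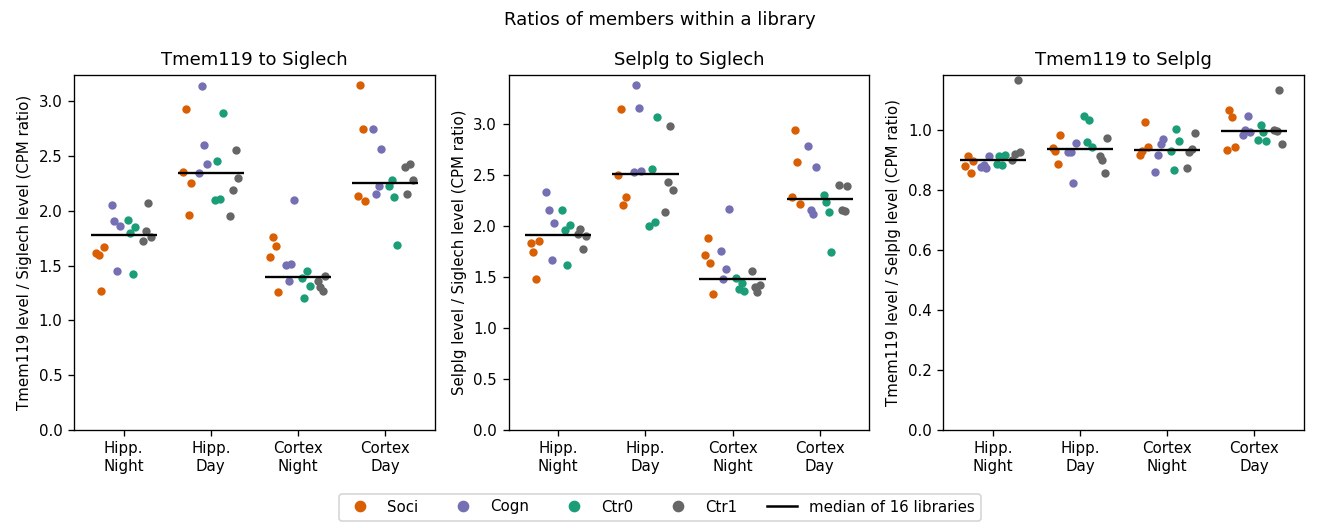
Ratio of the CPM of 2 members within each library (y axis, linear) by region and phase (x axis, 16 libraries each), with 1 point per library coloured by condition and a line at the median. Tmem119 to Siglech separates the phases in most libraries, with medians of 1.78 and 2.35 in hippocampus and 1.396 and 2.25 in frontal cortex, while Tmem119 to Selplg stays between 0.823 and 1.17.

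The 4 conditions were then compared within a region, averaged over the phases. In hippocampus 0 of 9 members were called (edgeR, lowest adjusted p 0.749), and 0 had an unadjusted p under 0.05, where 0% of 16826 genes were called and 1090 had an unadjusted p under 0.05. In frontal cortex 0 members were called as well (lowest adjusted p 0.720), and 0 had an unadjusted p under 0.05, with 0% of 16238 genes called and 1094 at an unadjusted p under 0.05. Over all genes DESeq2 called 6 and 1 in these tests. The test for day-night changes that depend on the condition called 0 members in each region, with 0% of genes called in hippocampus and 0.00616% in frontal cortex, and 0 members at an unadjusted p under 0.05. Over all genes 695 and 603 had an unadjusted p under 0.05, and DESeq2 called 15 and 11. DESeq2 called 0 members in each of these 4 tests.

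By group, Frontal cortex Day Soci had the highest mean of the 16 groups for 8 of the 9 members. Tmem119 was at 1463 ± 413 CPM there and at 775 ± 92.7 CPM in Frontal cortex Night Ctr1, the lowest (SD, n = 4). For Selplg the same groups were the extremes, at 1450 ± 312 and 833 ± 94.9 CPM (SD, n = 4). Siglech was again the exception, highest in Frontal cortex Night Soci at 641 ± 85.1 CPM and lowest in Hippocampus Day Cogn at 492 ± 40.2 CPM (SD, n = 4). The 4 libraries of Frontal cortex Day Soci did not sit together, with P2ry12 at 1630, 2749, 2609 and 1693 CPM in replicates 1 to 4.

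Within single conditions, with 4 libraries against 4, 14 member calls were made in all, each of them higher in day. In hippocampus 2 members were called in Soci (5.11% of genes called higher), 2 in Cogn (2.28%), 4 in Ctr0 (8.1%) and 1 in Ctr1 (5.04%). In frontal cortex 0 were called in Soci (4.78%), 2 in Cogn (2.49%), 1 in Ctr0 (1.84%) and 2 in Ctr1 (2.27%). In cortical Soci 2 members had an unadjusted p under 0.05 by edgeR. Selplg was called in 7 of these 8 comparisons, with changes of 0.46 to 0.67, and at 0.48 in cortical Soci its adjusted p was 0.0549. Tmem119 was called in 5, with changes of 0.57 to 0.80, and its difference was positive in all 8. The other 2 calls were Fcrls and Gpr34 in hippocampal Ctr0, at 0.42 and 0.50. Leaving out all libraries of 1 replicate number gave 0 to 6 such calls.

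The regions were compared over both phases. In hippocampus 3 members were lower than in frontal cortex and 0 were higher, where 6.17% of the 16069 genes tested were called lower. Fcrls had the largest difference, at -0.27 ± 0.05 (SE, edgeR, adjusted p = 0.000126). Its night levels ran from 598 to 819 CPM in hippocampus and from 658 to 1192 CPM in frontal cortex, and its day levels from 633 to 990 and from 725 to 1300 CPM, so the regions overlapped in both phases. Siglech, the member least moved by phase, was lower in hippocampus by -0.15 ± 0.04 (SE, adjusted p = 0.00150). Its night medians were 517 CPM in hippocampus and 587 CPM in frontal cortex. Gpr34 was lower by -0.16 ± 0.06 (SE, adjusted p = 0.0430), a call lost without Night Cogn replicate 4 of the cortex (adjusted p = 0.0510) and without replicate number 2, 3 or 4 (0.0556, 0.339 and 0.0598).

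The other 6 members were not called between regions. P2ry12 and Cx3cr1 were at -0.13 and -0.11 (adjusted p = 0.141 and 0.149), and Csf1r was at -0.09, with an approximate 95% interval from -0.19 to 0.01. Tmem119 was at -0.02, with an interval from -0.13 to 0.09, and Selplg and Olfml3 were both at 0.05, with intervals from -0.04 to 0.15 and from -0.05 to 0.16. Scaled to the 12 microglial genes, Fcrls and Gpr34 were again called lower, at -0.23 and -0.12, while Selplg and Olfml3 were called higher in hippocampus, each at 0.09, and Siglech was not called (adjusted p = 0.0707). Other cells differed between regions too. All 10 choroid plexus markers were higher in hippocampus, while 6 of 7 neutrophil and monocyte markers and 4 of 10 border macrophage markers were lower. Their part in the region differences was not tested beyond the fit with cell type scores, in which Fcrls and Siglech were called lower (adjusted p = 0.0427 and 0.0126).

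By phase, the night libraries gave 2 members lower in hippocampus, where 4.89% of genes were called lower. These were Fcrls at -0.30 (adjusted p = 0.00278) and Siglech at -0.18 (adjusted p = 0.0124). In day 0 members were called by edgeR, with 0.00622% of genes called lower, although 2 had an unadjusted p under 0.05. They were the same 2 genes, Fcrls at -0.24 (adjusted p = 0.142) and Siglech at -0.13 (adjusted p = 0.261), and DESeq2 called 0 members. Whether the day-night change itself differed between regions was tested as an interaction, which called 0 of 9 members by edgeR and by DESeq2, where 1.19% of genes were called, and 0 members had an unadjusted p under 0.05. The largest difference was that of Tmem119, at -0.15 with an interval from -0.36 to 0.07. The larger number of members called in hippocampus is thus not a difference shown between the regions.

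**Figure D4:**
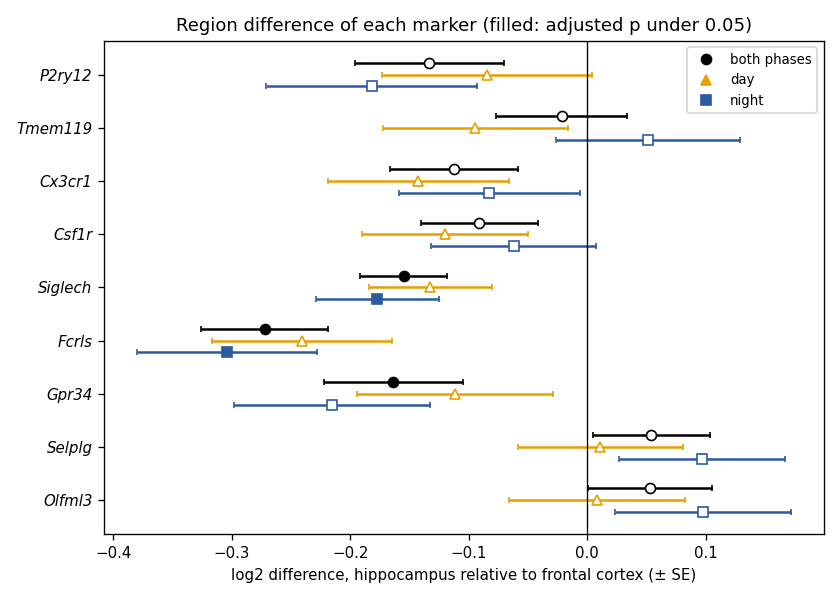
Log2 difference of each member, hippocampus minus frontal cortex, with its SE (x axis), over both phases and in day and night separately, filled where the adjusted p was under 0.05. Fcrls (-0.27), Gpr34 (-0.16) and Siglech (-0.15) lie below 0 over both phases, and Tmem119 and Selplg lie near 0.

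Of 6 ligands of the member receptors, 3 passed the count filter. Cx3cl1, the fractalkine bound by Cx3cr1 and mainly a neuronal product, was lower in day in frontal cortex by -0.55 ± 0.12 (SE, edgeR, adjusted p = 0.000569), with means of 18.8 ± 4.15 CPM in night and 12.9 ± 3.54 CPM in day (SD, n = 16). In hippocampus its difference of -0.20 was not called (adjusted p = 0.172). Of the 10 neuronal markers, 9 were lower in cortical day and 3 in hippocampal day. Whether neurons have a part in the fall of Cx3cl1 was not tested. Csf1, a ligand of Csf1r, was lower in hippocampal day by -0.15 ± 0.06 (SE, adjusted p = 0.0373), at -0.04 in frontal cortex (adjusted p = 0.664), and higher in hippocampus than in frontal cortex by 0.18 (adjusted p = 0.00437). Il34, the other ligand of Csf1r, was near 1 CPM and was not called in any of the 3 comparisons (adjusted p = 0.106, 0.396 and 0.628). Selp and Sele, which encode selectins that bind the Selplg product on vessel walls, were too low to test, with 0 counts of Selp in all 16 hippocampal day libraries. So in each region 1 of the 3 tested ligands was lower in day and 0 were higher, with a different gene called in each. Over all genes tested, 18.8% were called lower in hippocampus and 21.3% in frontal cortex.

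Genes of Csf1r and transforming growth factor beta signalling mostly rose with the members. Of 16 measured, 12 were higher in day and 2 lower in each region, with a median change of 0.26 in hippocampus and 0.24 in frontal cortex. Over all genes tested, 23.4% were called higher and 18.8% lower in hippocampus, and 20.6% and 21.3% in frontal cortex. Inpp5d, a lipid phosphatase that restrains signalling by surface receptors, rose by 0.44 ± 0.05 in hippocampus and 0.40 ± 0.05 in frontal cortex (SE, edgeR, adjusted p = 5.95e-08 and 3.10e-07). Pik3r1, a subunit of phosphoinositide 3-kinase, rose by 0.43 and 0.40, and Syk, a kinase downstream of many microglial receptors, by 0.42 and 0.38. The 2 that fell were Itgb8, an integrin that releases active transforming growth factor beta and is also made by astrocytes, and Lrrc32, which tethers the latent form of that factor. Itgb8 was at -1.68 ± 0.18 and -1.02 ± 0.25 (SE, adjusted p = 7.37e-09 and 0.00179) and Lrrc32 at -1.01 and -0.85 (adjusted p = 8.21e-07 and 0.00370). Both were low, with mean levels over all libraries of 9.37 and 2.43 CPM, and which cells these falls come from was not tested. Between regions Itgb8 was higher in hippocampus by 0.63 and was the single gene called of the 16. Of the 16069 genes tested there, 2667 were called, 1675 of them higher.

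Among 40 other homeostatic microglia genes, 28 were higher and 0 lower in hippocampal day, and 26 were higher and 1 lower in cortical day. Their medians were 0.27 and 0.20. Of all genes tested, 23.4% were called higher and 18.8% lower in hippocampus, and 20.6% and 21.3% in frontal cortex. Entpd1, the ectonucleotidase that breaks down the ATP and ADP sensed by P2ry12 and its relatives, rose by 0.76 ± 0.06 in hippocampus and 0.70 ± 0.08 in frontal cortex (SE, edgeR, adjusted p = 1.51e-11 and 3.88e-08), where the largest change of a member was 0.52 and 0.63. Rnase4, a secreted ribonuclease, rose by 0.63 and 0.64. Cd164, a sialomucin, rose by 0.63 in hippocampus, and Crybb1, a crystallin, by 0.58 in frontal cortex. Cd33, like Siglech a member of the Siglec family, was the gene that fell in frontal cortex, at -0.26 ± 0.06 (SE, adjusted p = 0.000469), and in hippocampus it was at -0.07 (adjusted p = 0.446). Between regions 5 of the 40 were lower in hippocampus and 1 was higher, where 6.17% of the 16069 genes tested were called lower. Lag3 was at -0.33, Upk1b at -0.29 and Cd33 at -0.20, and the circadian repressor Bhlhe41 was the higher one, at 0.17 (adjusted p = 0.000158, 0.000175, 0.00102 and 0.000308).

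Once the means of the 16 groups were subtracted, the members still varied together from library to library. Over the 64 libraries the 36 pairs had Pearson r from 0.43 to 0.96 with a median of 0.86, and Spearman's rho from 0.45 to 0.95. These points share libraries, scaling and the amount of other RNA in each sample, so the values are a description. Cx3cr1 and Csf1r were the closest pair (r = 0.96). Siglech was the least alike, with r from 0.43 with Selplg to 0.64 with Fcrls.

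The 3 genes most like each member were sought among 11107 genes. P2ry12 was most like P2ry13 (r = 0.95), another receptor for ADP, then Gpr34 (0.95) and Tmed10 (0.94). Tmem119 was most like Itgb5, Vsir and Pla2g15 (each 0.96). Cx3cr1 had Csf1r (0.96), Slc2a5 and Adgrg1 (0.95 each), and Csf1r had Tnfrsf1b, Plxnb2 and Cx3cr1 (each 0.96). Cx3cr1 and Csf1r thus stood on each other's lists. Fcrls was most like Adgre1 (0.94), a surface receptor of macrophages, then Csf1r (0.93) and Cx3cr1 (0.92). Gpr34 was closest to P2ry12 (0.95), with Mob1a also on its list (0.93), and Selplg had C1qa (0.94), Itm2c and Laptm5 (0.93 each). Olfml3 was most like Sparc (0.96), which encodes another secreted protein, then Tnfrsf21 and Cmtm6 (0.94 each). For Siglech the closest were Nckap1l and Tmem135 (0.91 each) and Mfap3 (0.90), none of them a member. Without the 2 libraries farthest from the median of the member, the r of these pairs stayed between 0.87 and 0.96.

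**Figure D5:**
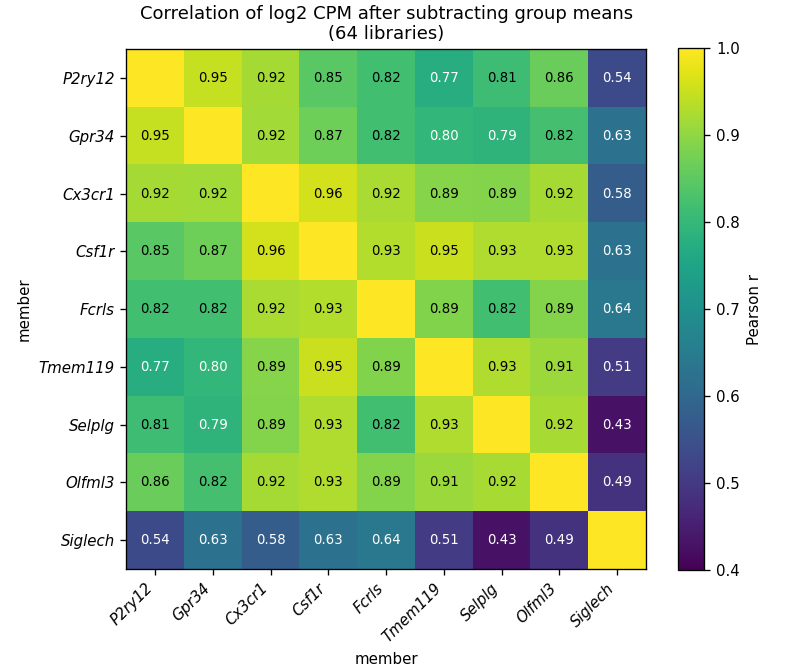
Pearson r between members over 64 libraries, in log2 CPM after the means of the 16 groups were subtracted, with members on both axes and colour for r. Cx3cr1 and Csf1r are the closest pair (0.96), and all pairs with Siglech lie between 0.43 and 0.64.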

How the data were processed

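RNA of CD11b-selected microglia was measured by single-end sequencing in 64 libraries. The authors deposited 1 table of raw counts per gene for build GRCm38, and the submitters' notes name STAR 2.7.3a and featureCounts of Subread 2.0.0. Strand settings are not given in the sources used here. Gene symbols, positions and exon lengths were taken from GENCODE M21.

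Groups of 4 libraries came from the labels. From the deposited counts, edgeR 4.0.16 in R 4.3.3 was run with TMM scaling, filterByExpr and the quasi-likelihood test over all genes that passed, with Benjamini-Hochberg adjustment over all of them and a threshold of 0.05. Day-night fits used the 32 libraries of a region, region fits all 64, and condition fits the region's 8 phase and condition means. CPM per kb divides by exon length. The script was tested on simulated data. Same-group libraries differed by more than counting noise in all 96 pairs (chi-square per degree of freedom at least 7.65). The labels do not say whether libraries of the 2 regions come from the same animals. Hippocampal and cortical libraries of the same phase, condition and number had correlations from -0.60 to 0.63 over 32 pairs. Their median was -0.0059, taken after group means were subtracted, and these values cannot show whether animals were shared. The main region fits treated all libraries as independent.

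The members and gene lists were chosen with earlier results of these data known. Named were the 9 members, the ligands, the 3 largest called rises and falls of the other 2 lists in each comparison, the 3 genes most like each member (Pearson r, average log2 CPM of at least 2), and 3 clock genes, to which Arntl and Dbp were added after their values were seen. Other genes are named only as scaling reference or overlapping genes. Alternatives were other scalings, no filter, DESeq2 1.42.0, leaving out libraries, a replicate block, condition as a term and cell type scores. Leaving out a cortical library and the ratios were added after the data were seen. Some genes of these lists are not reported here by name.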

Additional observations from a re-analysis of the deposited data

Results flagged for a closer look

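In 8 of 144 sets of 4 libraries (9 members in 16 groups) 1 library lay far from the other 3, where chance alone gives about 7.2. All 8 lay above the others, and 4 of them were Frontal cortex Night Cogn replicate 4. In that library P2ry12 was at 2491 CPM against 1329 to 1447 CPM in the other 3, Cx3cr1 at 3664 against 2127 to 2356 CPM, Fcrls at 1192 against 741 to 793 CPM, and Olfml3 at 867 against 549 to 563 CPM. Its summed microglial reference genes, at 15515 CPM, were above the other 15 cortical night libraries, while each of its 7 sums of other cell type markers lay inside their range. Whether it differs in its cells or in its handling was not tested.

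In Hippocampus Night Soci replicate 4, Tmem119 was at 991 CPM against 813 to 843 CPM and Fcrls at 799 against 693 to 710 CPM. Gpr34 was at 858 CPM in Hippocampus Day Soci replicate 2, against 593 to 597 CPM. Cx3cr1 was at 3095 CPM in Hippocampus Day Cogn replicate 2, against 2390 to 2510 CPM.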

How the results depend on the processing

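Of the results of single members recomputed under other settings, 722 kept their direction and side of the threshold, 28 became called, 46 lost the call and 50 changed sign, most of them differences that were called under neither setting. In hippocampal day-night, scaling to 12 microglial genes gave Cx3cr1 at -0.080, Siglech at -0.22, Fcrls at -0.0047 and Olfml3 at -0.13. Library totals gave Siglech at -0.12 and Olfml3 at -0.032. Cell type scores gave Cx3cr1 at -0.12, Siglech at -0.17, Fcrls at -0.064 and Olfml3 at -0.13, and replicate 4 alone Cx3cr1 at -0.011, Siglech at -0.036 and Olfml3 at -0.078. In cortical day-night, microglial scaling gave P2ry12 at -0.072, Cx3cr1 at -0.077, Fcrls at -0.13, Gpr34 at -0.058 and Olfml3 at -0.096. Between regions over both phases, totals gave Selplg at -0.054 and Olfml3 at -0.053, microglial scaling Tmem119 at 0.025, scores Tmem119 at 0.017, and replicate 4 alone Tmem119 at 0.025 and Olfml3 at -0.0042. In day, totals gave Selplg at -0.122 and Olfml3 at -0.122, leaving genes over 1% of counts out of the scaling Selplg at -0.0019 and Olfml3 at -0.0049, leaving out 5 libraries of outlying total Selplg at -0.0015, and replicate 4 alone Tmem119 at 0.074 and Olfml3 at -0.022. In night, Tmem119 was at -0.039 with totals, -0.0026 without the 5 libraries and -0.023 with replicate 4 alone. For the interaction, totals gave Siglech at -0.011, scores Cx3cr1 at 0.014 and Csf1r at 0.0010, and replicate 4 alone Tmem119 at 0.097, Cx3cr1 at 0.045, Csf1r at 0.082 and Selplg at 0.017. Leaving out 1 replicate number, or the cortical library, gave -0.060 to 0.078 for Siglech in hippocampal day-night, -0.065 to 0.041 for Tmem119 between regions, -0.043 to 0.047 for Selplg and -0.042 to 0.037 for Olfml3 between regions in day, and -0.011 to 0.11 for Siglech in the interaction. The causes were not tested, though microglial scaling by construction removes the shared rise of the reference genes.

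For counts of members called, library totals alone gave 2 in hippocampal day-night (7 by TMM), 2 in frontal cortex (4 by TMM), 6 between regions (3), 1 in night (2) and 0 within conditions (14). Microglial scaling gave 4 in hippocampal day-night, 2 higher and 2 lower, and in frontal cortex 2 higher and 4 lower. Between regions it gave 2 higher and 2 lower over both phases. In night it gave 5, with P2ry12, Fcrls and Gpr34 lower and Selplg and Olfml3 higher in hippocampus. Cell type scores gave 0 in hippocampal day-night, 2 in frontal cortex, 1 for the interaction and 0 within conditions. Replicate 4 alone, with fewer samples, gave 0 in hippocampal day-night, 0 between regions and 0 in night. Leaving out 1 replicate number at a time, or the 1 cortical library, gave 5 to 8 in hippocampal day-night, 3 to 8 in frontal cortex, 0 to 2 between regions in day and 0 to 19 within conditions. With a replicate block 7, 5 and 3 members were called in hippocampus, in frontal cortex and between regions, and 15 within conditions. DESeq2 called 7, 6 and 3.

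Over all genes, 6550 were called in hippocampal day-night, but 4293 with library totals, 4319 without replicate 1, 152 with scores and 118 with replicate 4 alone. In frontal cortex 6266 were called, but 4065 with totals, 9457 with microglial scaling, 3941 without replicate 2 and 2367 with scores. Between regions 2667 were called, but 1608 with microglial scaling, 1322 without replicate 2, 1382 without replicate 3, 1589 with scores and 0 with replicate 4 alone. Between regions in day DESeq2 called 152 genes. The share of calls that were higher, 55.5%, 49.2% and 62.8% in these 3 comparisons, was 6.10%, 16.1% and 33.6% with totals and 3.81%, 2.07% and 75.9% with microglial scaling. The median day-night difference of all genes in hippocampus and frontal cortex was -0.14 and -0.09 with totals and -0.24 and -0.31 with microglial scaling. Every library held at least 4875 counts of each member, so the spread between libraries, not depth, limits these results.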
